A study of Mus musculus with 135 samples.

Results

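Minocycline was compared with no drug in AA mice that had gone through repeated social defeat (RSD), separately in the cerebral cortex (cort) and the hippocampus (hip). The libraries were chosen by their labels, disease state AA and stress exposure RSD, with treatment Yes (AA + RSD + minocycline) against No (AA + RSD). They numbered 44, and 42 remained of the 134 libraries of the series with a known group after a pair of deposited duplicates was dropped: 18 treated and 3 untreated mice in each tissue, 21 mice in all. The other AA libraries, 12 cortex and 11 hippocampus libraries of AA mice with neither stress nor drug and 1 library per tissue of an AA + minocycline mouse without RSD, entered the same fit and give the background level of each gene. RNA was measured by sequencing of polyadenylated RNA, and levels are given as CPM, the read count of a gene scaled by the library's reads on all genes.

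AA mice are Townes mice, in which human globin genes replace those of the mouse. The AA line carries the normal human beta globin and serves as the humanized control of the sickle line, so all groups share the humanized globins. All mice were male. In RSD an aggressive male intruder is put into an established cage of 3 males on 6 evenings in a row, and defeat is read from the residents' submissive behaviour. Treated mice drank minocycline in their water on the day before RSD and through all its sessions, and the placebo of that cohort was plain water. Whether the 3 AA + RSD mice belonged to that cohort or to an earlier one without drug is not given in the sources used here. Mice of the defeat experiment were 6 months old, and the age of the minocycline cohort is not given in the sources used here. Brains were taken 1 to 2 days after behavioural testing, which began after the last dose. In bulk RNA fewer cells of a type and less RNA per cell cannot be told apart.

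Minocycline is a tetracycline antibiotic that enters the brain. Tetracyclines bind the small subunit of the bacterial ribosome and can slow the related mitochondrial ribosome, and minocycline is also used as an inhibitor of microglial activation, of matrix metalloproteinases and of poly(ADP-ribose) polymerase. Microglia are the resident macrophages of the brain, and social defeat in mice is known for microglial activation and for the entry of blood monocytes. 

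The tissue labels of 1 untreated mouse went against its markers. Of 24 fixed tissue markers, 12 had ranges that did not overlap between the other cortex and hippocampus libraries of AA mice. In the mouse titled 9674 the library labelled cortex lay nearer to the hippocampus for 23 of the 24 markers, and the library labelled hippocampus lay nearer to the cortex for 22. Prox1, a transcription factor of dentate granule cells, stood at 13.1 to 22.2 CPM in the other cortex libraries and at 51.1 to 173 CPM in the other hippocampus libraries. In mouse 9674 it was 91.4 CPM in the library labelled cortex and 16.9 CPM in the library labelled hippocampus. Lhx9 was 12.1 and 0.125 CPM in the same libraries, against 0.113 to 2.73 CPM in the other cortex and 9.78 to 25.4 CPM in the other hippocampus libraries. The columns of mouse 9674 were therefore exchanged, and all values below are after that exchange unless the labels are named.

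**Figure D1:**
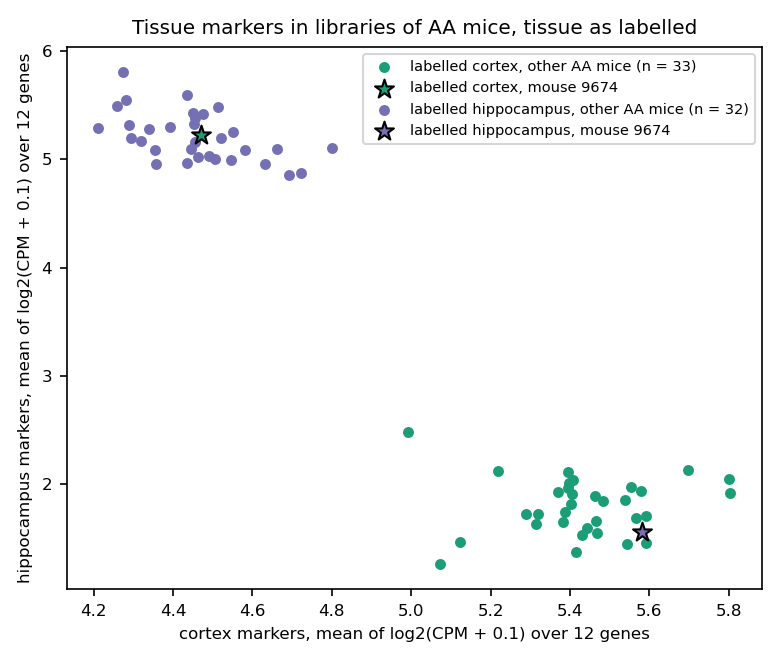
Each point is 1 library of an AA mouse, placed by the mean log2(CPM + 0.1) of the 12 cortex markers and of the 12 hippocampus markers, with colour for the tissue on the label. The libraries of mouse 9674 lie in the cloud of the opposite tissue, nearer to it for 23 and 22 of the 24 markers.

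Other libraries stood apart as well. The cortex library of treated mouse 5648 held olfactory bulb genes at levels not seen elsewhere, with Th at 56.5 CPM against at most 7.25 CPM and Doc2g at 39.8 CPM against at most 3.82 CPM in all other AA cortex libraries (genes named after their values were seen, as are Prox1, Lhx9, Alas2 and Ttr). Alas2, an erythroid enzyme of heme synthesis, was 50.5 and 44.4 CPM in the cortex and hippocampus of treated mouse 5853 and 98.4 and 56.6 CPM in those of the AA control mouse 5844, against at most 19.9 and 12.5 CPM in the other treated mice. Ttr, a defining gene of the choroid plexus, was 5079 CPM in the hippocampus library of mouse 9674 after the exchange and 141 and 308 CPM in the other 2 AA + RSD mice, while treated mouse 5646 reached 9474 CPM. In each tissue 7 libraries had over 22% of their reads unmapped (24.5% to 31.3% in the cortex and 26.2% to 41.9% in the hippocampus). They were those of AA + RSD mouse 9643, of 3 treated mice, of 2 AA control mice and of the AA + minocycline mouse, and their mt-Co3 level was 179 to 364 CPM and 218 to 359 CPM against 11.9 to 48.8 CPM and 14.2 to 41.6 CPM in the others. Leaving out mouse 5648 or 5853 left 0 calls in the cortex and 8 in the hippocampus in each case.

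The mouse numbers in the titles fall into separate blocks, which were joined here into 3 series, termed A, B and C. Among the AA mice used, series A has numbers 9631 to 9674. Series B has 5645 to 5900 and 9836 to 9879, and series C has 7037 and 10633 to 10639. The grouping was made from the numbers. Series A holds all 3 untreated defeated mice, and the 18 treated mice are 15 of series B and 3 of series C. Within the mice compared, treatment and number series therefore cannot be told apart. What the blocks stand for is not given in the sources used here. The share of reads outside annotated genes moved with the series. It was 3.68% to 5.53% in the AA + RSD cortex libraries and 4.35% to 13.9% (median 8.90%) in the treated ones, and 3.69% to 5.12% against 4.22% to 9.94% (median 8.45%) in the hippocampus. By an exact permutation test over mice, two-sided, p was 0.0218 in the cortex and 0.00827 in the hippocampus, with Benjamini-Hochberg adjusted values of 0.131 and 0.0992 over 12 tests. The treated libraries split into 6 of 4.35% to 5.87% and 12 of 7.34% to 13.9% in the cortex, and into 5 of 4.22% to 5.26% and 13 of 7.47% to 9.94% in the hippocampus. Below, the low-share fold is the fit that keeps only the treated libraries under 6.5%, and the control fold is series B against series A among AA mice with neither stress nor drug.

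**Figure D2:**
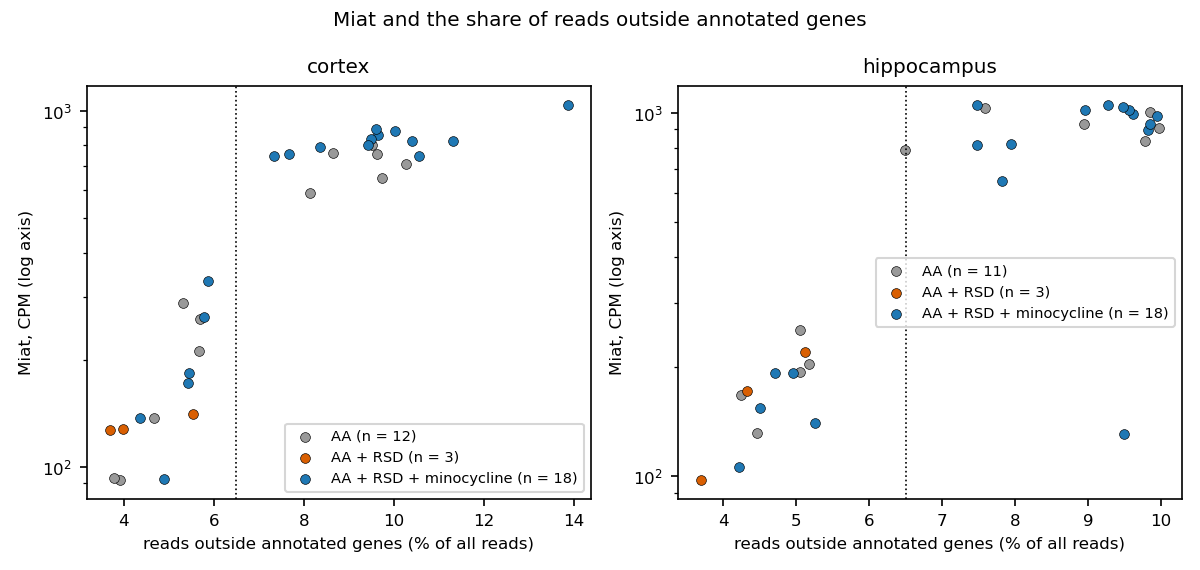
Each point is 1 library, with the share of its reads outside annotated genes in percent on the x axis and the Miat level in CPM on a log axis, by tissue and group. AA + RSD libraries lie at 3.68% to 5.53%, 12 cortex and 13 hippocampus treated libraries lie right of the dotted line at 6.5%, and all but 1 of these have higher Miat values than every AA + RSD library.

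Depth ran from 19.5 M to 83.5 M reads on genes in the compared cortex libraries and from 12.9 M to 58.7 M in the hippocampus libraries. The shallowest was an AA + RSD hippocampus library. Within a tissue the p-values of the fits weigh a difference against the spread between mice, estimated over all AA groups. Since all 3 untreated defeated mice are of series A, the p-values cannot tell treatment from number series.

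After RSD, edgeR called few genes as different between treated and untreated AA mice. With so few untreated mice, a gene that was not called may still differ. In the cortex 0 of 21816 genes tested passed an adjusted p of 0.05 in edgeR's quasi-likelihood test (0%). At an unadjusted p under 0.05 there were 3987, 3073 higher (14.1% of those tested) and 914 lower (4.19%) in treated mice, and DESeq2 called 495 (2.27%), 428 higher and 67 lower. In the hippocampus edgeR called 10 of 21568 genes (0.0464%), and all 10 were lower in treated mice. At an unadjusted p under 0.05 there were 2860, 2211 higher (10.3%) and 649 lower (3.01%), and DESeq2 called 16 (0.0742%), 13 higher and 3 lower, of which 2 were also called by edgeR. The shares at an unadjusted p under 0.05 are the backgrounds of the list counts below that use all treated mice.

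The exchange of mouse 9674 moved these counts. With its libraries under their labels, edgeR called 789 of 21927 genes in the cortex (3.6%) and 576 of 21563 in the hippocampus (2.67%). After the exchange none of the 789 was called and 475 of the 741 that could still be tested had an unadjusted p under 0.05, while 9 of the 10 hippocampal genes were called either way. The exception was Ighv6-3. The number series also moved the counts. With treated mice of series B alone, 864 of 21650 cortex genes passed (171 higher, 693 lower). In the hippocampus 590 of 21595 passed (60 higher, 530 lower), and all 10 hippocampal genes were among the 590. With a term for the number series, 1013 of 21816 cortex genes passed (14 higher, 999 lower) and 1151 of 21568 hippocampus genes (92 higher, 1059 lower). AA control mice alone fall in both series A and B, so the term for B against A came from them. The fit takes that difference to be the same in defeated and treated mice, which was not tested. Only 39 of the 1013 and 60 of the 1151 had an unadjusted p under 0.05 without the term. All 10 hippocampal calls were lost (0 of the 1151, and Derl3 was at -0.74, edgeR adjusted p = 0.171). Among the treated mice themselves, series C against B gave 1672 higher (7.66%) and 277 lower (1.27%) genes in the cortex. It gave 1703 higher (7.9%) and 535 lower (2.48%) in the hippocampus. By the naming rule the 6 genes of largest change were mt-Nd4l, mt-Nd3, Mir6236, mt-Atp6, mt-Co3 and mt-Co2 in both tissues. The 3 treated mice of series C are also the 3 with over 22% of reads unmapped, so these cannot be told apart here. Among AA control mice series B against A gave 0 higher (0%) and 3 lower (0.0138%) genes in the cortex and 258 higher (1.2%) and 267 lower (1.24%) in the hippocampus. Without control mice 5844 and 9631 it gave 0 in each tissue.

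The hippocampal genes called lower in treated mice were Derl3 and 9 immunoglobulin genes. All of them were at levels below the limit of the naming rule and are given here because they are all the calls. Plasma cells, the antibody-secreting cells that B cells become, make immunoglobulin mRNA in large amounts and rely on the endoplasmic reticulum, where new proteins fold. Each such cell uses 1 variable segment for its light chain and 1 for its heavy chain, joined to a constant segment. Called genes included the constant segments Igkc (kappa light chain) and Igha (heavy chain of immunoglobulin A), the kappa variable segments Igkv12-46, Igkv9-120, Igkv2-109, Igkv19-93 and Igkv8-30, and the heavy variable segments Ighv6-3 and Ighv8-8. Derl3 is a membrane protein of the machinery that removes misfolded proteins from the endoplasmic reticulum and is high in secretory cells.

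Igkc (ENSMUSG00000076609.3, GRCm39 chromosome 6, 70703419 to 70703950) was 16.3, 14.5 and 1.52 CPM in the hippocampus of AA + RSD mice 9643, 9646 and 9674 and 0.0369 to 5.69 CPM (median 0.276) in the 18 treated mice. In counts these were 531, 189 and 48 reads against 335 reads over all 18 treated libraries, each of which had at least 1 and the highest 143. AA control mice lay at 0.0575 to 1.49 CPM (median 0.219), so all 3 AA + RSD mice were above the highest control, and the treated median was close to the control median. The log2 fold change was -4.10 ± 0.76 (SE; edgeR adjusted p = 0.0225, DESeq2 0.0286), and 16 of 18 treated mice were below all 3 AA + RSD mice. On the strand opposite Igkc, annotated genes overlap 97.9% of its bases, so reads of either cannot be told apart unless counting used strand.

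Igha (GRCm39 chromosome 12, 113218450 to 113223856) was 7.02, 0.612 and 0.0951 CPM in the AA + RSD mice, so 1 mouse held nearly all of it: 229, 8 and 3 reads, against 75 reads in 11 of 18 treated libraries. Its log2 fold change was -4.34 ± 0.87 (edgeR adjusted p = 0.0461, DESeq2 0.103). It was -1.38 without mouse 9643 and -1.22 without the libraries of many unmapped reads, of which 9643 is 1. Each variable segment came almost wholly from 1 untreated mouse. Mouse 9646 had 59 reads of Igkv12-46, 26 of Igkv9-120 and 11 of Ighv8-8, against 0 to 2 reads of each in the other 2 mice. Mouse 9643 had 29 reads of Igkv2-109 and 17 of Igkv19-93, against 0 in the others. Mouse 9674 had 19 reads of Igkv8-30 and 13 of Ighv6-3, against 0 or 1. Over the 18 treated libraries together these 7 segments had 1 to 4 reads each. The smallest group of the fit is the 1 AA + minocycline library, so a gene could enter the test on its level in 1 library. The segments had such reads in the untreated mouse named, so their calls rest on the mouse that let them in. In a model of the 2 groups alone, Derl3 stayed called and all the immunoglobulin calls were lost. The segments belong to families of similar genes, and reads mapped to several places have a row of their own in the tables, so segment levels are uncertain.

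Each of the 10 calls was lost in at least 1 of the 3 runs that left out an untreated mouse. Without 9643 the test called 5 genes and lost Igkc, Igha, Igkv2-109, Igkv19-93 and Ighv8-8 (adjusted p of Igkc 0.339). Without 9646 it called 4 and lost Igkc, Igha, Igkv12-46, Igkv9-120, Ighv8-8 and Derl3 (Igkc 0.232). Without 9674 it called 9, of which 7 were among the 10, and lost Igkv8-30, Ighv6-3 and Derl3. Jchain, the protein that joins immunoglobulin A units, was looked at after its values were seen: it was 2.36, 3.52 and 0.412 CPM against 0.184 to 1.99 CPM (median 0.706) in treated mice, with a log2 fold change of -1.54 ± 0.52 (adjusted p = 0.291).

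In the cortex the same mice held few immunoglobulin reads. Igkc was 0.361, 0.918 and 0.91 CPM in AA + RSD mice and 0.0547 to 0.594 CPM (median 0.184) in treated mice (11, 20 and 22 reads against 178 reads in all 18), for which the log2 fold change was -1.57 ± 0.65 (adjusted p = 0.199). Jchain was 0.329, 0.229 and 0.166 CPM against 0.105 to 1.13 CPM (median 0.689), so in the cortex its value was higher in treated mice (1.31 ± 0.57, adjusted p = 0.213). Of the blood leukocyte list, 10 of 18 genes could be tested in the hippocampus and 0 were called, with a median log2 fold change of -0.23 against 0.01 over all genes; in the cortex 13 could be tested, with a median of -0.14. Cd4 in the cortex, a gene of helper T cells that microglia also express, was 1.28, 5 and 3.39 CPM against 0.437 to 2.24 CPM (median 0.914) (log2 fold change -1.65 ± 0.47, edgeR adjusted p = 0.137, DESeq2 0.0491).

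**Figure D3:**
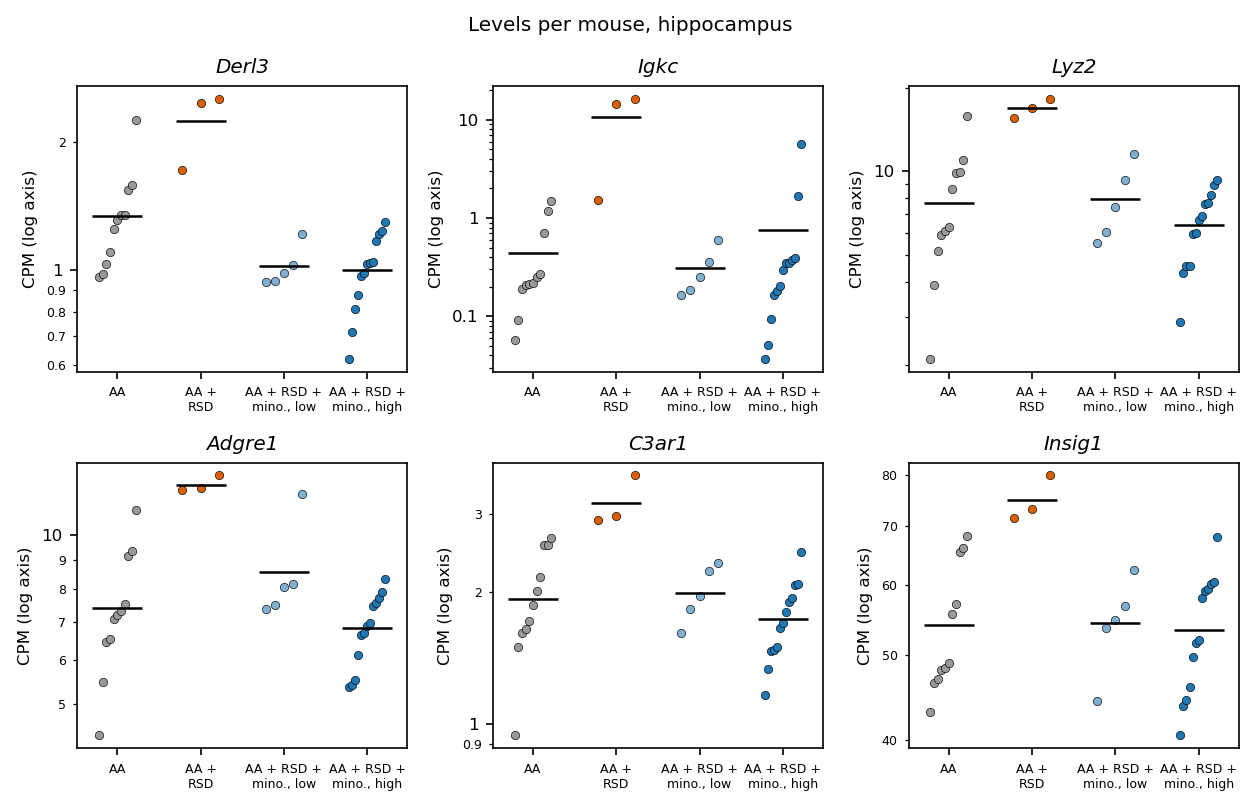
Levels in the hippocampus in CPM, on log axes, of 6 genes, 1 point per mouse, for AA, AA + RSD and AA + RSD + minocycline mice, the last split into low and high share of reads outside genes (under and over 6.5%), with bars at the group means. Derl3 and Lyz2 are lower in all 18 treated mice than in every AA + RSD mouse, and Igkc is lower in 16 of 18.

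Derl3 (ENSMUSG00000009092.6, GRCm39 chromosome 10, 75729215 to 75731775) was lower in the hippocampus of treated mice and had similar levels in the 3 untreated mice. It was 1.72, 2.52 and 2.47 CPM in AA + RSD mice 9643, 9646 and 9674 and 0.62 to 1.3 CPM (median 1.01) in treated mice. All 18 treated mice were below all 3 untreated ones, which was so for 38 of the genes tested (0.176%). AA control mice overlapped both groups, at 0.966 to 2.25 CPM (median 1.32), and the AA + minocycline mouse was at 0.69 CPM. The log2 fold change was -1.15 ± 0.19 (edgeR adjusted p = 0.00577, DESeq2 0.00152). It was -1.12 with low-share treated libraries only, -1.29 without the libraries of many unmapped reads, where it was the 1 gene called, and the control fold was -0.37. That run also lacked mouse 9643 and the AA + minocycline mouse. Its filter therefore asked for reads in more than 1 library, and 19383 genes were tested. Leaving out 9646 or 9674 raised the adjusted p to 0.123 and 0.128.

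In the cortex Derl3 was 1.74, 2.02 and 1.49 CPM against 0.423 to 1.36 CPM (median 0.971), and again all 18 treated mice were below all 3 untreated ones (77 genes of those tested, 0.353%). Its log2 fold change there was -0.89 ± 0.23 (adjusted p = 0.122, not past the threshold), and the fold did not differ detectably between tissues (hippocampus minus cortex -0.22 ± 0.28, adjusted p = 1). Control mice were at 0.778 to 1.74 CPM (median 1.28) and the AA + minocycline mouse at 0.657 CPM.

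Derl3 belongs to the genes of the unfolded protein response, which cells switch on when proteins misfold in the endoplasmic reticulum. Many of its target promoters carry the ER stress response element, which is CCAAT, then any 9 bases, then CCACG. The promoters of Derl3 and of the chaperones Hspa5 (BiP) and Hsp90b1 (GRP94) are shown because they hold this motif and the genes had lower values in treated mice in both tissues; they were chosen after those values were seen. The windows hold the 250 bases before the start of the gene and its first 50 bases in RefSeq (build GRCm38.p6), at chr10:75893148-75893447 on the plus strand for Derl3, chr2:34771840-34772139 on the plus strand for Hspa5 and chr10:86705395-86705694 on the minus strand for Hsp90b1. They are written 5′ to 3′ on the gene's strand, with matches to the motif, or on the other strand to CGTGG, any 9 bases and ATTGG, in capitals.
Derl3: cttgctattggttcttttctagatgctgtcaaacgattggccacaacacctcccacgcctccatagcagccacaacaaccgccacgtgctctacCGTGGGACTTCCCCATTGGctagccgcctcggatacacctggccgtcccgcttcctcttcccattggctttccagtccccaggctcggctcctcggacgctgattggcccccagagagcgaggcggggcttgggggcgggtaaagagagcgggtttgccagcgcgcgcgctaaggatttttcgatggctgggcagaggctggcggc
Hspa5: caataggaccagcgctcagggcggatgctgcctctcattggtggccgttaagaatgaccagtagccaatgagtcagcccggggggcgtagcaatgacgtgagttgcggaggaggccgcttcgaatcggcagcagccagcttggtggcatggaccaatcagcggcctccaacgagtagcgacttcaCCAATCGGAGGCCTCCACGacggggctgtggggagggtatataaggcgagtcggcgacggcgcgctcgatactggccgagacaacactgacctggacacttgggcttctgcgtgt
Hsp90b1: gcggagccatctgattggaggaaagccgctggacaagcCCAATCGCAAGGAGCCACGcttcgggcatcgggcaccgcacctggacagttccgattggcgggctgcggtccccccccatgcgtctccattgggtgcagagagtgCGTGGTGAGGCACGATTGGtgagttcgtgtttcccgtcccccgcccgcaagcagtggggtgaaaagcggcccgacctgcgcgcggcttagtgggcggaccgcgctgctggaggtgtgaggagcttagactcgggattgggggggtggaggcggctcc

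The match of Derl3 is on the opposite strand and begins 156 bases before the start, that of Hspa5 is on the gene's strand 65 bases before it, and Hsp90b1 has 1 on each strand. Searched on both strands, the motif stood in 35 of 27025 promoters (0.13%) and in 3 of the 16 promoters available for the 20 genes of the chaperone list, those of Hspa5, Hsp90b1 and Creld2. Of the 35 genes 21 were tested. In the cortex Derl3, Canx, Hspa5, Calr, Dnajc3 and Hsp90b1 were lower at an unadjusted p under 0.05 (background 4.19% lower) and Gm6566, Pan2 and Tdrd9 were higher; 0 were called. In the hippocampus Derl3, Calr, Hspa5, Pdia6, Canx and Hsp90b1 were lower (background 3.01%) and Xlr3b and Pan2 higher, and Derl3 was called. The median log2 fold change of the 21 genes was -0.02 in the cortex and 0.08 in the hippocampus, against 0.01 and 0.01 over all genes. Their low-share medians were -0.12 and -0.04, and their median control folds 0.02 and -0.03. A match is only a description of these letters.

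Chaperones, which fold proteins and hold misfolded ones, had mostly lower values in treated mice in both tissues, and none was called. Of the 20 listed genes, 18 were lower in value in the cortex, 6 of them at an unadjusted p under 0.05 (background 4.19%). In the hippocampus 17 were lower in value, 4 of them at that p (background 3.01%). The median log2 fold change was -0.21 and -0.20. In low-share libraries it was -0.10 and 0.04, and among control mice series B against A gave -0.35 and -0.36, which share no mice with the minocycline comparison.

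Hsph1, a cytosolic chaperone of the HSP110 family, was 355, 394 and 393 CPM in the cortex of AA + RSD mice and 182 to 318 CPM (median 262) in treated mice, all 18 below the untreated ones. Its log2 fold change was -0.53 ± 0.12 (adjusted p = 0.119), the low-share fold -0.40 and the control fold -0.40. Hspa5, the main chaperone of the endoplasmic reticulum, was 268, 287 and 264 CPM against 146 to 276 CPM (median 177) in the cortex and 270.0, 310.3 and 329 CPM against 155 to 318 CPM (median 183) in the hippocampus. The folds were -0.50 ± 0.18 and -0.54 ± 0.20, with control folds of -0.59 and -0.59, and a fit that added the number series turned them to 0.13 and 0.11. Annotated genes overlap 44.2% of Hspa5 on the other strand. Sdf2l1, a co-chaperone in the endoplasmic reticulum, was 8.43, 13.4 and 12.3 CPM against 4.73 to 10.5 CPM (median 6.56) in the hippocampus (log2 fold change -0.70 ± 0.23, adjusted p = 0.291).

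Microglial genes lay lower in treated mice in both tissues, but none of these genes was called. Of the 20 homeostatic microglia genes, 19 had a lower value in the hippocampus (6 at an unadjusted p under 0.05) and 18 in the cortex (4), with medians of -0.33 and -0.22. Over all genes tested, 3.01% in the hippocampus and 4.19% in the cortex were lower at that p. With low-share treated libraries the medians were -0.04 and 0.03, and the control fold of the list was -0.43 in both tissues. The activated microglia list had medians of -0.19 and -0.20 in hippocampus and cortex. In it 4 of 19 and 5 of 20 genes were lower at an unadjusted p under 0.05 (backgrounds 3.01% and 4.19%). Its low-share medians were -0.06 and -0.02 and its control folds -0.33 and -0.32.

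Lyz2, the lysozyme of macrophages and microglia, was 15.5, 17 and 18.2 CPM in the hippocampus of AA + RSD mice and 2.87 to 11.6 CPM (median 6.8) in treated mice, with no overlap. Its log2 fold change was -1.30 ± 0.31 (adjusted p = 0.165). Control mice spanned 2.11 to 15.8 CPM (median 6.29), and the control fold was -1.03. In the cortex Lyz2 was 12.5, 10.2 and 13.9 CPM against 3.62 to 11.6 CPM (median 5.46) (-1.03 ± 0.35, adjusted p = 0.148), with 17 of 18 treated mice below all untreated ones. A fit that added the number series gave -0.21 in the hippocampus and 0.11 in the cortex.

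Adgre1, which encodes the macrophage surface protein F4/80, was 12.7, 12.1 and 12 CPM against 5.36 to 11.8 CPM (median 7.43) in the hippocampus, again with no overlap (log2 fold change -0.75 ± 0.17, adjusted p = 0.141, low-share -0.51, control fold -0.46). Fcrls, a gene that marks resident microglia, was 31.3, 32 and 35.2 CPM against 5.47 to 30.2 CPM (median 11.4) in the hippocampus and 35.4, 24.7 and 33.6 CPM against 3.83 to 25 CPM (median 12.8) in the cortex. Its folds were -1.28 ± 0.41 and -1.29 ± 0.44 (adjusted p = 0.291 and 0.148), and the control folds were -1.19 and -1.21. Laptm5, a lysosomal protein of blood cells and microglia, differed by -0.52 ± 0.16 in the cortex and -0.32 ± 0.11 in the hippocampus. Plek, a protein kinase C substrate of platelets and microglia, was 21, 15.4 and 18.3 CPM against 9.52 to 15.8 CPM (median 12.3) in the hippocampus. Spp1 (osteopontin) had a fold of -1.08 ± 0.32 there, while Lpl, the lipoprotein lipase, was higher in value (0.92 ± 0.39). The part that the number series and the share of reads outside genes have in these differences was not tested.

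Complement and antigen presentation genes were mostly lower in value, and none was called. In the hippocampus 16 of 18 were lower in value, 5 at an unadjusted p under 0.05 (background 3.01%), with a median of -0.52. The median was -0.24 with low-share libraries and the control fold was -0.43. In the cortex 16 were lower in value with a median of -0.19, which turned to 0.07 with low-share libraries, and the control fold was -0.38. C3ar1, the receptor of complement fragment C3a, was below every AA + RSD mouse in all 18 treated mice of both tissues. It was 3.55, 3.26 and 3.23 CPM against 1.31 to 2.75 CPM (median 1.83) in the cortex and 3.68, 2.98 and 2.92 CPM against 1.16 to 2.47 CPM (median 1.81) in the hippocampus. The folds were -0.89 ± 0.24 (edgeR adjusted p = 0.124, DESeq2 0.0331) and -0.82 ± 0.20 (0.175 and 0.0679), and the control folds -0.84 and -0.63 stood beside them. A fit that added the number series left a cortical fold of -0.016 and a hippocampal fold of -0.16. C1qb, a chain of the first complement component, had a hippocampal fold of -0.61 ± 0.26 (adjusted p = 0.329), with ranges that overlapped.

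Of the cytokine and interferon genes none was called. Of the cytokine signalling genes 1 higher and 2 lower of 24 passed an unadjusted p of 0.05 in the cortex and 0 higher and 1 lower of 25 in the hippocampus, with medians of -0.07 and -0.19. The interferon-stimulated genes gave 2 higher and 2 lower of 18 and 0 higher and 2 lower of 18, with medians of -0.03 and -0.21. Irf9, the DNA-binding part of the interferon-activated complex ISGF3, was 5.98, 5.23 and 4.92 CPM in the cortex of AA + RSD mice and 6.19 to 13 CPM (median 9.84) in treated mice, all 18 above the untreated ones (153 genes tested, 0.701%). Its fold was 0.84 ± 0.20 (edgeR adjusted p = 0.119, DESeq2 0.0165), low-share fold 0.48, control fold 0.36. Control mice were at 5.42 to 10.4 CPM (median 9.59), so 2 of the 3 AA + RSD mice lay below all of them. Gbp2, an interferon-induced GTPase, was lower in value in the hippocampus, at 5.12, 5.74 and 4.06 CPM against 1.91 to 4.11 CPM (median 2.86) (-0.78 ± 0.24, adjusted p = 0.275). Il4ra, the receptor chain shared by interleukins 4 and 13, was 6.99, 7.88 and 5.39 CPM against 3.21 to 6.58 CPM (median 4.59) there, with a control fold of -0.01. Cd14 and Tlr2, receptors for bacterial products, had cortex folds of -0.57 ± 0.19 and -0.67 ± 0.27.

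Among genes that neuronal firing switches on, Egr3 had lower values in the cortex of treated mice while most of the list was higher in value. Egr3 (GRCm39 chromosome 14, 70314350 to 70320063), a transcription factor induced by synaptic activity, was 175, 206 and 153 CPM in AA + RSD mice 9643, 9646 and 9674 and 59.4 to 147 CPM (median 92.7) in treated mice, which did not overlap. Control mice were at 110.4 to 236 CPM (median 192), so AA + RSD mice lay within the control range and the treated median lay under it. The log2 fold change was -0.81 ± 0.19 (edgeR adjusted p = 0.119, DESeq2 0.0215), with a low-share fold of -0.93 and a control fold of -0.32. Homer1, a postsynaptic scaffold with an activity-induced short form, was 183, 187 and 132 CPM against 74.9 to 174 CPM (median 109) (-0.56 ± 0.18, adjusted p = 0.144, low-share -0.69, control fold -0.07). Bdnf, a neurotrophin, was 27.8, 31.6 and 29.2 CPM against 13.9 to 33.1 CPM (median 21.4) (-0.42 ± 0.17). Nr4a1, an orphan nuclear receptor, went the other way in value, 47.6, 58.2 and 58.9 CPM against 35.2 to 187 CPM (median 85.1) (0.81 ± 0.34, adjusted p = 0.2).

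Of the 18 immediate early genes, 14 were higher in value in the cortex with a median of 0.35, and 12 in the hippocampus with a median of 0.03. In the hippocampus Egr3 was 73.3, 75.5 and 72.6 CPM against 52.4 to 89.9 CPM (median 70.6), a fold of -0.03 ± 0.11. The difference of the folds between tissues was 0.82 ± 0.18 with mouse as a block (edgeR unadjusted p = 9.4e-05, adjusted p = 0.386), and DESeq2 called it.

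**Figure D4:**
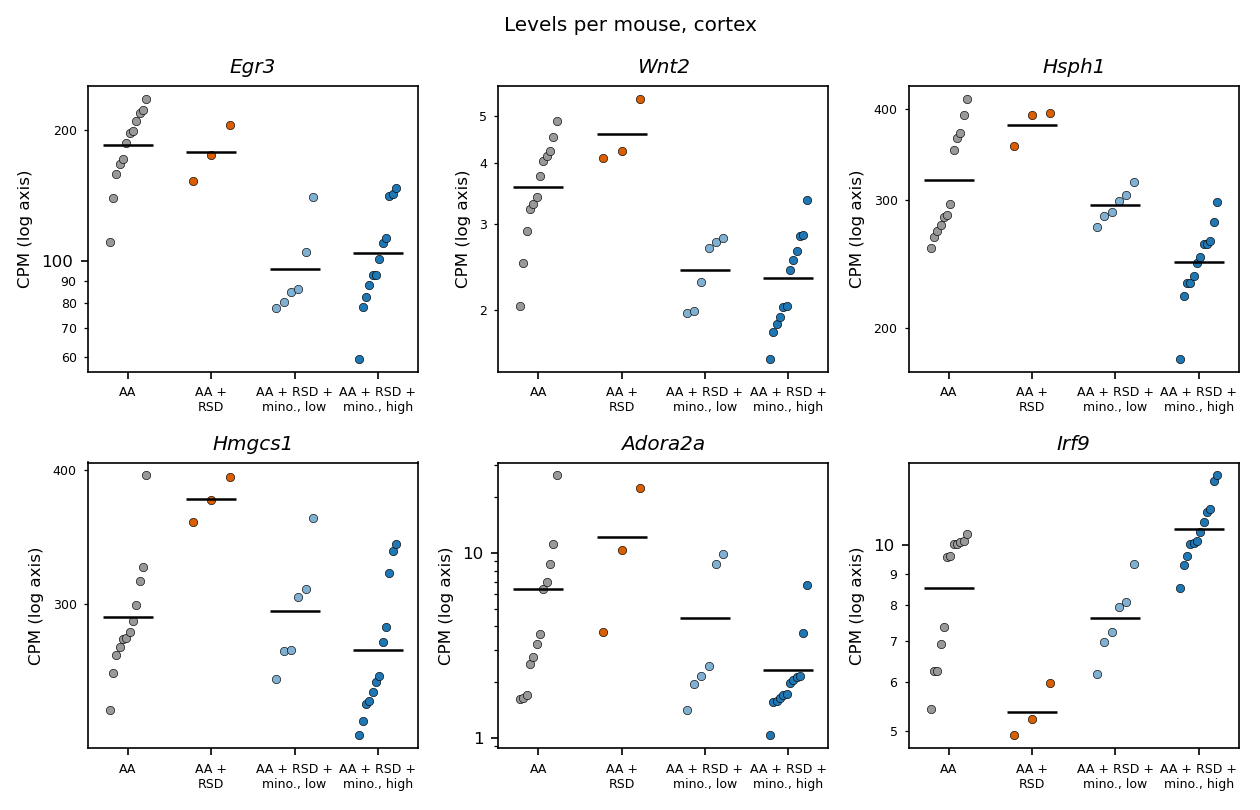
Levels in the cortex in CPM, on log axes, of 6 genes, 1 point per mouse, by group as in the plot of hippocampal levels, with bars at the group means. Wnt2, Egr3 and Hsph1 are lower in all 18 treated mice than in every AA + RSD mouse, and their adjusted p-values are 0.0898, 0.119 and 0.119.

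The cortex genes of smallest p outside the lists had various functions, and none was called. Wnt2, a secreted Wnt ligand, was 4.24, 5.41 and 4.1 CPM against 1.58 to 3.35 CPM (median 2.34), with controls at 2.04 to 4.88 CPM (median 3.59) (fold -0.96 ± 0.19, edgeR adjusted p = 0.0898, DESeq2 0.00529, control fold -0.50). Fam198b, a Golgi glycoprotein also named Gask1b, was 9.2, 9.18 and 7.53 CPM against 3.51 to 7.13 CPM (median 4.68) (-0.84 ± 0.17, adjusted p = 0.0898), and its control fold was 0.01. Kcns2, a modulatory subunit of voltage-gated potassium channels, was 45.8, 44.8 and 42.2 CPM against 24.8 to 41.2 CPM (median 29.8) (-0.52 ± 0.11). Med14, a Mediator subunit, and Slc2a13, the proton myo-inositol cotransporter, had folds of -0.33 ± 0.07 and -0.46 ± 0.10. On the higher side stood Thap3, a zinc finger protein, at 9.07, 9.77 and 9.15 CPM against 10.4 to 17.1 CPM (median 13.7) (0.54 ± 0.11), Kiss1r, the kisspeptin receptor, at 0.62 ± 0.13, and Nemp1, a nuclear envelope protein, at 0.76 ± 0.17. The folds of Akna, Rpain and Xndc1 were 0.79 ± 0.18, 0.70 ± 0.16 and 1.34 ± 0.30.

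In the hippocampus the corresponding genes with higher values included genes of RNA handling, and none was called. Hnrnpdl, an RNA-binding protein that also regulates splicing, was 169, 157 and 156 CPM in AA + RSD mice and 194 to 231 CPM (median 206) in treated mice, without overlap (120 such genes, 0.556%; fold 0.38 ± 0.08, edgeR adjusted p = 0.059, DESeq2 0.0149). Upf3b, of nonsense-mediated decay, was 19.9, 15.8 and 17.4 CPM against 21.7 to 29.7 CPM (median 25) (0.52 ± 0.11, adjusted p = 0.059 and 0.0175). Nol10, a nucleolar protein, was 18.5, 18.4 and 18.5 CPM against 20.5 to 26 CPM (median 23.7) (0.35 ± 0.08). Sltm, Nab2 (a corepressor of EGR proteins) and Amy1 (amylase) had folds of 0.50 ± 0.11, 0.34 ± 0.08 and 1.22 ± 0.28. Control folds of Hnrnpdl, Upf3b and Amy1 were 0.29, 0.37 and 0.90. On the lower side, Lrrtm3, a synaptic adhesion protein, was 28.6, 21.6 and 22.8 CPM against 14.4 to 21.6 CPM (median 17.7) (-0.46 ± 0.11, control fold 0.15), and Efhd2 (swiprosin-1), a calcium-binding protein, differed by -0.40 ± 0.10.

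Striatal genes were lower in value in the treated cortex, with 1 untreated mouse far above the others. All 10 striatum markers were lower in value and 9 passed an unadjusted p of 0.05 (background 4.19%), with a median of -0.99, -0.79 in low-share libraries and -0.34 between control mice. Adora2a, an adenosine receptor of striatal neurons, was 3.71, 22.5 and 10.3 CPM in AA + RSD mice 9643, 9646 and 9674 and 1.03 to 9.91 CPM (median 2.01) in treated mice (-2.01 ± 0.59, adjusted p = 0.138). The summed level of the list was 262, 665 and 402 CPM in AA + RSD mice, 152 to 624 CPM in treated mice and 221 to 689 CPM in controls. How dissection bears on this was not tested.

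The dopamine receptors Drd1 and Drd2, high in striatal neurons, were highest in the same mouse, 9646. Drd1 was 12.1, 27.4 and 12 CPM against 6.34 to 20.1 CPM (median 8.25) (-0.87 ± 0.30) and Drd2 was 2.53, 17.8 and 5.34 CPM against 0.639 to 8.79 CPM (median 1.26) (-1.78 ± 0.68). Htr2a, the serotonin 2A receptor of cortical pyramidal neurons, is no striatum marker of the list. It was 41.3, 44.4 and 40.9 CPM against 11.4 to 53.1 CPM (median 23.7), with 17 of 18 treated mice below all untreated ones (-0.70 ± 0.24, adjusted p = 0.148, low-share -0.93, control fold 0.00). Htr1f differed by -0.50 ± 0.23. Of the receptor list 1 higher and 4 lower of 17 in the cortex and 0 higher and 1 lower of 16 in the hippocampus passed an unadjusted p of 0.05, with medians of -0.03 and 0.03. In the hippocampus Htr2a was 16.9, 10.9 and 15.2 CPM against 11.1 to 15.3 CPM (median 12.7), with overlapping ranges.

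Glutamate synapse genes had cortical and hippocampal medians of -0.11 and 0.07, with 1 higher and 1 lower of 22 and 3 higher and 1 lower of 22 at an unadjusted p under 0.05. Dlg4, the postsynaptic scaffold PSD-95, was 757, 796 and 735 CPM against 394 to 804 CPM (median 654) in the cortex (-0.27 ± 0.11), and Gria2, an AMPA receptor subunit, was higher in value in both tissues (0.48 ± 0.19 and 0.44 ± 0.17, control folds 0.52 and 0.47). Glucocorticoid response genes had medians of -0.09 and 0.04. Crh, the corticotropin-releasing hormone, was 4.73, 4.63 and 8.73 CPM against 2.04 to 5.98 CPM (median 3.24) in the cortex and 1.81, 1.53 and 1.81 CPM against 0.533 to 2.16 CPM (median 0.885) in the hippocampus (-0.71 ± 0.26 and -0.75 ± 0.31, adjusted p = 0.155 and 0.319). Fkbp5, a glucocorticoid target that restrains the receptor, had a hippocampal fold of 0.13 ± 0.09. Interneuron genes had medians of -0.14 and -0.17. Genes of neurogenesis and proliferation had medians of -0.10 and -0.04, and Dcx, of migrating new neurons, was 24.5, 28.3 and 19.8 CPM against 19.8 to 95.5 CPM (median 41.5) in the cortex (0.78 ± 0.32, control fold 0.79).

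Cholesterol synthesis genes, which the transcription factor SREBP2 controls together, were lower in value in treated mice in both tissues. In the cortex 18 of 22 had a lower value and 5 passed an unadjusted p of 0.05 (background 4.19%). In the hippocampus these were 19 of 22 and 8 (background 3.01%), and none was called. The medians were -0.21 and -0.22, -0.20 and -0.10 with low-share libraries, and -0.16 and -0.06 between control mice of the series.

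Insig1, which retains the SREBP complex in the endoplasmic reticulum and is itself its target, was 71.6, 79.9 and 73.1 CPM in the hippocampus of AA + RSD mice and 40.5 to 68.1 CPM (median 54.1) in treated mice, all 18 below the untreated ones. Control mice were at 43 to 68.2 CPM (median 48.9), at the level of treated mice. The fold was -0.48 ± 0.13 (adjusted p = 0.212) with a low-share fold of -0.46 and a control fold of -0.15. In the cortex it was 83.5, 91.3 and 97.7 CPM against 56.2 to 89.9 CPM (median 71.9) (-0.30 ± 0.12). Hmgcs1, the HMG-CoA synthase of the pathway, was 394, 375 and 358 CPM against 227 to 361 CPM (median 272) in the cortex, with 17 of 18 treated mice below all untreated ones (-0.42 ± 0.12, edgeR adjusted p = 0.127, DESeq2 0.0301). Its hippocampal fold was -0.35 ± 0.13, and those of Idi1 and Cyp51, later enzymes of the pathway, were -0.45 ± 0.15 and -0.42 ± 0.15, with 28.3% of Cyp51 overlapped by genes on the other strand.

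Sphingolipid genes did not share a direction. Of 39 tested, 3 were higher and 2 lower at an unadjusted p under 0.05 in the cortex. In the hippocampus 2 were higher and 1 lower, with cortical and hippocampal medians of -0.12 and -0.04. Sgpl1, which cleaves sphingosine 1-phosphate, was 34.5, 31.9 and 34.8 CPM against 33.2 to 45.7 CPM (median 41.9) in the cortex (0.27 ± 0.09, adjusted p = 0.139), but only 0.08 with low-share libraries. Cers4 and Galc, a ceramide synthase and the galactosylceramidase, had cortex folds of 0.68 ± 0.26 and 0.40 ± 0.15 and low-share folds of 0.04 and 0.13. Cers6 and Sptlc1, a ceramide synthase and a subunit of the first enzyme of the pathway, had hippocampal folds of 0.27 ± 0.11 and -0.12 ± 0.06.

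No gene of the mitochondrial lists was called in the edgeR fit of all treated mice without added terms. None of the 13 mitochondrially encoded mRNAs had an unadjusted p under 0.05 in either tissue, and their medians were -0.01 and -0.20. With low-share libraries these turned to 0.15 and 0.30, with 2 higher and 6 lower in the cortex and 3 higher and 4 lower in the hippocampus at an unadjusted p under 0.05. Over all 21816 cortex genes the low-share fit gave 852 higher and 1643 lower, and over all 21568 hippocampus genes 974 and 1449. With a term for the number series 6 of the 13 were called lower in each tissue, against 999 of the 21816 and 1059 of the 21568 genes. Their level was set apart in the libraries of many unmapped reads: mt-Co3 was 364, 19.4 and 14.3 CPM in the cortex of AA + RSD mice and 11.9 to 239 CPM (median 20.3) in treated mice. The mitochondrial ribosome list gave 1 higher and 1 lower of 24 in the cortex and 1 higher and 1 lower of 24 in the hippocampus, with medians of -0.10 and -0.11. Its low-share medians turned to 0.09 and 0.13, with 4 genes higher and 0 lower in each tissue at an unadjusted p under 0.05, and its control folds were -0.25 and -0.33. All 26 nuclear respiratory chain genes were lower in value in both tissues with a median of -0.18 in each, 0 passed an unadjusted p of 0.05, and the low-share medians were 0.12 and 0.15. The integrated stress response, which mitochondrial faults can start, had medians of -0.09 and -0.08. Its members Trib3 and Chac1 had cortex folds of -0.52 ± 0.23 and -0.32 ± 0.16. Of the 12 reported minocycline targets 1 higher and 1 lower of 12 and 2 higher and 1 lower of 12 passed an unadjusted p of 0.05. Mmp9, a matrix metalloproteinase, was 0.887, 0.872 and 1.57 CPM against 0.933 to 2.83 CPM (median 1.79) in the cortex (0.68 ± 0.28), and Parp1 was 87.8, 109 and 104 CPM against 95.2 to 144 CPM (median 125) in the hippocampus (0.28 ± 0.10). Alox5, the 5-lipoxygenase, had folds of -0.42 ± 0.23 and -0.62 ± 0.24.

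Long RNAs that stay in the nucleus had higher values in treated mice, and the difference moved with the share of reads outside genes. Higher RNAs numbered 7 (cortex) and 5 (hippocampus) of 9 at an unadjusted p under 0.05 (backgrounds 14.1% and 10.3%), with medians of 1.54 and 1.26, and DESeq2 called 5 in the cortex. Miat was 127, 141 and 128 CPM in the cortex of AA + RSD mice and 92.4 to 1039 CPM (median 773) in treated mice, and 171, 219 and 97.3 CPM against 106 to 1051 CPM (median 859.9) in the hippocampus. The folds were 2.23 ± 0.71 and 2.06 ± 0.78 (adjusted p = 0.14 and 0.303). With low-share treated libraries they were 0.54 and -0.04, and between control mice of series B and A, none stressed or treated, they were 1.76 and 1.97. Meg3, Snhg11 and Neat1 had cortex folds of 2.23 ± 0.69, 2.08 ± 0.68 and 1.33 ± 0.44 and low-share folds of 0.75, 0.59 and 0.58. Annotated genes on the other strand overlap 32.6% of Miat.

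Ribosomal protein mRNAs had lower values in treated mice. All 26 were lower in value in both tissues, 0 passed an unadjusted p of 0.05 in the cortex and 1 did in the hippocampus. The median was -0.23 and -0.34, 0.15 and 0.12 with low-share libraries, -0.50 and -0.61 with high-share ones, and -0.57 and -0.68 between control mice. Among genes named above, Egr3, Homer1, Htr2a, Fam198b and C3ar1 in the cortex and Derl3, Lyz2, Il4ra and Insig1 in the hippocampus had low-share folds of -0.93, -0.69, -0.93, -0.86, -0.87, -1.12, -1.08, -0.63 and -0.46. None of them was past the threshold in that smaller comparison.

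**Figure D5:**
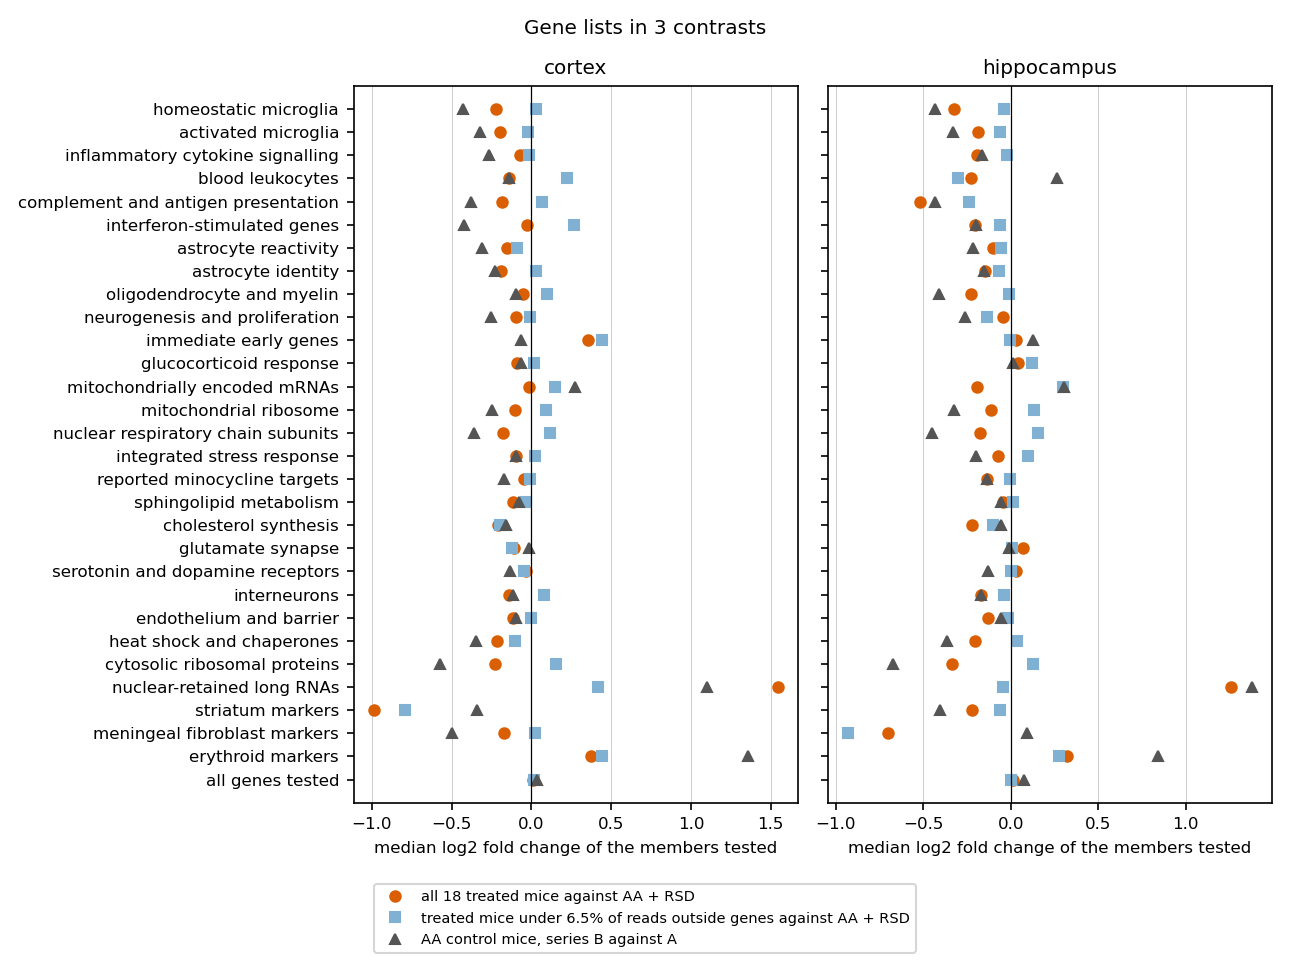
Median log2 fold change of 29 gene lists and of all genes tested, by tissue, for all treated mice, for low-share treated mice and for series B against A among AA control mice. Nuclear-retained RNAs lie at 1.54 and 1.26 with all treated mice and at 0.42 and -0.04 with the low-share ones.

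The median of further lists changed sign with low-share libraries. In the cortex these were blood leukocytes, interferon-stimulated genes, astrocyte identity, oligodendrocyte and myelin, glucocorticoid response, integrated stress response, interneurons and meningeal fibroblast markers. In the hippocampus they were immediate early genes, integrated stress response, sphingolipid metabolism and choroid plexus markers.

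The other cell type lists showed 0 called genes in edgeR. Astrocyte reactivity genes had medians of -0.16 and -0.10 in cortex and hippocampus and astrocyte identity genes of -0.19 and -0.15. Aldh1l1, an astrocyte enzyme of folate metabolism, was 71.2, 68.5 and 68.2 CPM against 44.6 to 73.4 CPM (median 53.6) in the hippocampus (-0.36 ± 0.09, adjusted p = 0.225) and differed by -0.45 ± 0.15 in the cortex. Oligodendrocyte and myelin genes had medians of -0.05 and -0.23, with 0 at an unadjusted p under 0.05 in either tissue. Endothelium and barrier genes had medians of -0.11 and -0.13, and Tek, the angiopoietin receptor, differed by -0.46 ± 0.21 and -0.42 ± 0.15. Medians were -0.08 and -0.13 for cortex markers, 0.25 and 0.18 for hippocampus markers, 0.23 and -0.51 for choroid plexus, 0.11 and -0.03 for thalamus, -0.17 and -0.70 for meningeal fibroblast and 0.38 and 0.32 for erythroid markers. In the hippocampus the striatum list had a median of -0.22. The meningeal genes Col3a1 and Ogn were 4.26, 4.44 and 1.52 CPM against 0.575 to 3.69 CPM (median 1.37) and 19.7, 10.8 and 12 CPM against 3.18 to 12 CPM (median 8.82) in the hippocampus. All 10 genes of that list were lower in value there, 3 at an unadjusted p under 0.05 (background 3.01%).

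Whether the difference between treated and untreated mice was alike in both tissues was tested with each mouse as its own block. Of 20597 genes 0 passed by edgeR (754 at an unadjusted p under 0.05, 3.66%), and DESeq2 called 4, Jchain, Lsm11, Inf2 and Egr3, of which all but Egr3 are named after their values were seen. Jchain had the smallest p in this test (hippocampus minus cortex -2.73 ± 0.51, edgeR adjusted p = 0.291). The folds of Lyz2 and C3ar1 differed by -0.26 ± 0.23 and 0.08 ± 0.23 between tissues, and that of Irf9 by -0.49 ± 0.14 (adjusted p = 1 for each).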

How the data were processed

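Polyadenylated RNA of cortex and hippocampus was sequenced, and per the labels the authors aligned reads to GRCm39 with STAR and took read counts per gene of the GENCODE annotation while mapping. The deposited values are whole-number read counts of 55416 genes, 5111 of them without a symbol. The strand setting, the STAR version and the annotation release are not given in the sources used here. Columns were tied to samples by the label in the description field, and 3 columns of the tables were not used. Rows for unmapped, multiply mapped, ambiguous and outside-gene reads stayed out of library sizes and tests. The tables hold the same values for treated mouse 9877 and an SS + minocycline mouse in both tissues, so that mouse was left out.

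Counts were filtered with filterByExpr (minimum count 10, minimum total 15), scaled by TMM and tested with edgeR 4.0.16 (R 4.3.3) by the quasi-likelihood test, in 1 model per tissue of all AA groups, with Benjamini-Hochberg adjusted p under 0.05 as the threshold. The 1 AA + minocycline mouse carries no spread of its own. DESeq2 1.42.0 was an alternative. The tissue difference was tested with the mouse as replicate block, since cortex and hippocampus libraries of a number come from the same mouse. CPM values use library sizes of reads on genes with TMM factors. The tests were checked on simulated data. Coordinates are of GENCODE vM39, which matched 54749 of 55416 genes.

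Named genes were, per tissue, up to 12 called genes of largest fold in each direction at a mean log2 CPM of at least 1, filled up to 6 by smallest p, up to 4 members of smallest p in each of 33 gene lists, and up to 6 genes for the tissue difference and for each series contrast. The mice and lists were chosen with earlier results of these data known. The split at 6.5% of reads outside genes, the limit of 22% unmapped and the run without mouse 5648 were chosen after seeing the data.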

Additional observations from a re-analysis of the deposited data

How the results depend on the processing

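With 3 untreated mice, all of number series A, counts of calls depended on the fit, and the cause was not tested. In the cortex, where edgeR called 0 genes, DESeq2 called 495, the fit with 9674 under its labels 789, with number series as a term 1013, with treated mice of series B only 864, of series C only 1, and with treated mice over 6.5% outside genes 3976. In the hippocampus, against 10 calls, DESeq2 gave 16, no filter 17, a model of the 2 groups alone 2, 9674 under its labels 576, the series term 1151, series B only 590, series C only 0, the share outside genes as a term 5, treated mice under 6.5% 0, treated mice over it 1792, all libraries under 6.5% 0, and removal of libraries over 22% unmapped 1. Leaving out 1 untreated mouse gave 4 to 9 calls there and 0 in the cortex. For the tissue difference, DESeq2 gave 4, no filter 1 and the labels 7, and without the replicate block edgeR called 0 (385 at an unadjusted p under 0.05). Series B against A in control mice gave 1332 by DESeq2 and 0 without 5844 and 9631 in the cortex, and in the hippocampus 2040 by DESeq2, 150 without the filter and 0 without those mice. With the series term the folds of Lyz2 and Hspa5 in the cortex turned to 0.11 and 0.13, and those of Hspa5 and Miat in the hippocampus to 0.11 and -0.010. Miat there was -0.042 with treated mice under 6.5% and -0.069 with all libraries under 6.5%. Of 33 named gene results, 29 kept their direction in all settings run. The genes were named from these same data and the settings refit the same mice, so a kept direction is no independent support. It could also go with a far smaller fold, such as -0.016 for C3ar1 in the cortex against -0.89. Depth limits the immunoglobulin segments, which rest on few reads.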
